A study of Homo sapiens with 9 samples.

Results

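The mRNAs of 10 chemokine genes were followed in MDA-MB-231, an established cell line of human triple-negative breast cancer. The genes are CCL2, CCL5, CCL20, CXCL1, CXCL2, CXCL3, CXCL8, CXCL16, CX3CL1 and CXCL12. They are 10 of the 26485 genes in the deposited values and were chosen with their measured differences between the hairpins and the control in view. Those differences are therefore given as a description without a test. The control cells stably expressed a non-specific (NS) shRNA, and the others stably expressed ASAH1 shRNA #1 or ASAH1 shRNA #2, hairpins against the gene of the lysosomal enzyme acid ceramidase. The cells were grown in DMEM with serum, no other treatment is named, and each group was sequenced in 3 libraries described as biological replicates. A single cell line was studied, and a bulk library cannot tell fewer expressing cells from less mRNA per cell.

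Chemokines are small secreted proteins that direct the migration of cells carrying matching receptors. CCL2 attracts monocytes through CCR2, CCL5 attracts T cells and monocytes, and CCL20 attracts dendritic cells and T cells through CCR6. CXCL1, CXCL2, CXCL3 and CXCL8 attract neutrophils through CXCR1 and CXCR2. CXCL16 and CX3CL1 are made as membrane-bound proteins that ADAM10 and ADAM17 can cut free, and CXCL12 is the ligand of CXCR4. Many chemokine genes are switched on by NF-kB after IL-1 or TNF. Breast cancer cells are known to use such signals to draw in myeloid cells.

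The libraries held 30989598 to 34867548 reads on genes with NS shRNA, 23806003 to 39791698 with shRNA #1 and 35653318 to 49659106 with shRNA #2. ASAH1 itself fell from normalized counts of 4436 to 4518 with NS shRNA to 1268 to 1365 with shRNA #1, a log2 fold change of -1.76 (SE 0.05, limma adjusted p = 9.49e-09). In the table of shRNA #2 it fell from 4787 to 4898 down to 762 to 807, by 2.63 on the log2 scale (SE 0.06, limma adjusted p = 5.42e-10). VIM, CD44 and EGFR had 2667 reads or more in every library and ESR1 and PGR at most 2, while ERBB2, the third receptor that the triple-negative class lacks as protein, had 1530 to 3581. Of the 7 leukocyte markers, which bear on chemokine genes, PTPRC had at most 8 reads, CD3E at most 3 and LYZ at most 14 in any library, while CSF1R had 89 to 183. ITGAM had 1 to 6 reads with NS shRNA, 12 to 27 with shRNA #1 and 1 to 2 with shRNA #2, against the direction of the summed level. The summed level of the 7 was 30.5 to 37.1 CPM (reads per 1000000 of the TMM-scaled library size in edgeR) with NS shRNA, 12.4 to 12.5 with shRNA #1 and 31.5 to 36.2 with shRNA #2, with 942 to 1018, 155 to 293 and 1054 to 1470 reads of CD14 in that order. The 4 fibroblast markers summed to 5.57 to 6.07 CPM with NS shRNA, 3.28 to 3.57 with shRNA #1 and 2.28 to 2.74 with shRNA #2, without overlap and in the same order as CCL2. Most of these reads were of LUM, with 137 to 140, 77 to 126 and 31 to 59 in that order. COL3A1 went against it, with 48 to 58, 6 to 16 and 41 to 47 reads, and PDGFRA had at most 6 and DCN at most 3. The 3 endothelial markers summed to 2.93 to 3.18, 1.68 to 2.69 and 1.47 to 2.09 CPM, lower with each hairpin than with NS shRNA. Their part in the chemokine values was not tested.

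The 4 neutrophil-attracting genes lie in 1 cluster on chromosome 4 of hg38. From CXCL8 (chr4:73740519-73743716, plus strand) the cluster runs over CXCL1 (chr4:73869393-73871308, plus strand) and CXCL3 (chr4:74036589-74038807, minus strand) to CXCL2 (chr4:74097040-74099196, minus strand). It spans 359 kb. CCL2 lies on chromosome 17 (chr17:34255274-34257208, plus strand, 3 exons), 13.01 kb before CCL7, which had 0 reads in every library. CCL5 (chr17:35871491-35880793) and CXCL16 (chr17:4733533-4739928) are on the minus strand of the same chromosome. CCL20 (chr2:227805739-227817564) and CX3CL1 (chr16:57372477-57385044) are on plus strands, and CXCL12 (chr10:44370165-44386493) is on the minus strand.

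The upstream sequences of the 4 clustered genes are shown because these neighbours share a promoter element. Whether it has a part in their levels, described further on, was not tested. RefSeq promoter windows (GRCh38.p14) were found for 6 of the 10 genes, CCL20, CXCL1, CXCL2, CXCL3, CXCL8 and CXCL12. The stretches run from 140 to 51 bases before the RefSeq start of each gene, 5′ to 3′ on the gene's own strand, and lie at chr4:73869253-73869342 (CXCL1), chr4:74099246-74099335 (CXCL2), chr4:74038740-74038829 (CXCL3) and chr4:73740429-73740518 (CXCL8). The starts are those of RefSeq. The CXCL3 interval of GENCODE reaches further upstream through a transcript with no defined coding sequence, so that 68 of the 90 bases shown for CXCL3 lie inside that interval, and the CXCL8 interval begins 50 bases before the RefSeq start, next to the stretch shown. For CCL20 and CXCL12, which are not shown, the GENCODE intervals begin 8103 and 1396 bases before the RefSeq starts. Capitals mark the kappa-B stretch GGAATTTCC, a site type bound by NF-kB, the GC box GGGCGG and, in CXCL8, the AP-1 site TGANTCA.
CXCL1: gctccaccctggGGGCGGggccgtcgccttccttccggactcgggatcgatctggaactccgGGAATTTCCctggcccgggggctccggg
CXCL2: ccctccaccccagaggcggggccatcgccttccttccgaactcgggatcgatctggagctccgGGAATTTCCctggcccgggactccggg
CXCL3: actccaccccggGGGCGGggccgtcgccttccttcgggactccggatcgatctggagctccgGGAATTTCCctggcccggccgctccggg
CXCL8: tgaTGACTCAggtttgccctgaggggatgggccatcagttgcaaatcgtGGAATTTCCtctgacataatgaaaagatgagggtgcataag

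The exact stretch GGAATTTCC began 78 bases before the start in CXCL1, 77 in CXCL2, 78 in CXCL3 and 91 in CXCL8, and was not in the windows of CCL20 or CXCL12. Searched on both strands over 250 bases before the start, it was in 145 of 35116 promoters, or 0.413%. The GC box, present in 42.6% of the promoters, was found in CXCL1 and CXCL3 128 bases before the start and 3 times in CXCL12. The AP-1 site TGANTCA, which reads the same on both strands, was in 6.57% of the promoters and here in CXCL8 alone, 137 bases before the start. A TATA box (TATAAA), present in 10.7%, was in CXCL8 and CCL20. The CXCL1 stretch was 89.0% identical to that of CXCL2 and 92.2% identical to that of CXCL3 in a global alignment, against 37.2% to that of CXCL8. These matches are letters in a window, and no binding was measured.

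To put the genes in order, the reads of each library were scaled to CPM and divided by the length in kilobases of the gene's MANE Select transcript in GENCODE v44. In cells with NS shRNA, CXCL8 stood highest at 367 ± 13.96 CPM per kb (SD, n = 3), followed by CXCL1 at 292 ± 6.04 and CCL2 at 258 ± 3.86. CXCL2 had 46.6 ± 1.72, CX3CL1 12.2 ± 0.236, CXCL3 9.97 ± 0.790, CXCL16 4.32 ± 0.186, CCL20 2.06 ± 0.253 and CCL5 0.740 ± 0.146 CPM per kb. The libraries of no neighbouring pair in this order overlapped. CXCL12 had 0 reads in all 3 NS shRNA libraries, where up to 3 reads per library remain possible.

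The order differed in the knockdown cells. With shRNA #1, CXCL8 stood at 646 ± 3.86 CPM per kb, and CXCL2 (131 ± 3.25) and CXCL1 (128 ± 3.35) overlapped behind it. CXCL3 followed at 12.2 ± 1.39, CXCL16 (8.26 ± 0.391) and CX3CL1 (7.86 ± 0.717) overlapped, and CCL2 was 7th at 4.45 ± 0.838. With shRNA #2, CXCL8 had 469 ± 18.6, CXCL1 135 ± 9.88 and CXCL2 40.7 ± 2.00 CPM per kb, and CXCL16 was 4th at 11.2 ± 0.419. CX3CL1 (3.58 ± 0.247) and CCL20 (2.91 ± 0.489) overlapped there, and so did CCL5 (0.312 ± 0.0701) and CCL2 (0.305 ± 0.0693), the lowest of the detected genes.

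**Figure D1:**
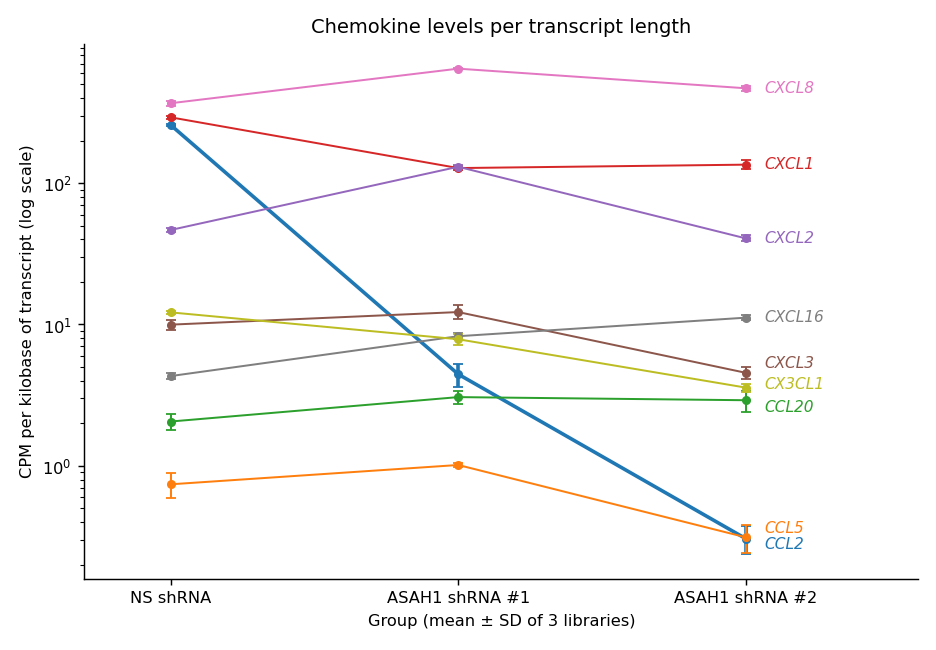
Level of each detected chemokine per transcript length in CPM per kilobase, on a logarithmic axis, as the mean ± SD of 3 libraries for NS shRNA, ASAH1 shRNA #1 and ASAH1 shRNA #2. CCL2, the heavy line, runs from 258 with NS shRNA to 4.45 and 0.305, while CXCL8 is highest in every group.

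For the differences from NS shRNA, the authors' normalized counts of each table were used. A difference was called past the threshold at a Benjamini-Hochberg adjusted p below 0.05 in limma, fitted over every gene whose normalized counts averaged 10 or more. With shRNA #1, 9 of the 10 chemokines had enough reads, 5 were past the threshold as higher and 3 as lower, where 32.8% of the 14341 genes tested were called higher and 33.3% lower. With shRNA #2, 3 of 9 were higher and 6 lower, where 33.5% of 14250 genes were called higher and 33.4% lower. Leaving out single libraries gave 4 to 5 higher and 3 lower with shRNA #1, and 2 to 3 higher and 5 to 6 lower with shRNA #2. The NS shRNA and knockdown libraries did not overlap for any of the 9 genes in either comparison, while this held for 69.2% of all genes tested with shRNA #1 and 70.0% with shRNA #2. The median log2 fold change of the 9 was 0.46 with shRNA #1 and -1.12 with shRNA #2, against 0.0013 and 0.013 over all genes tested. Since the genes were chosen on these values, nothing is read from the counts. The 2 comparisons share their NS shRNA libraries and are not independent.

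The hairpins were also set against each other, on the reads of all 9 libraries in edgeR. These ratios come from the same libraries as the differences the genes were chosen on, so for the chemokines they too are given as a description, with a 95% interval and no test. At an adjusted p below 0.05 in edgeR's quasi-likelihood test, 6 of 9 chemokines were lower with shRNA #2, 1 was higher and 2 were not past the threshold, where 32.1% of the 14714 genes tested were lower and 31.1% higher, and nothing is read from these counts. ASAH1 was also lower with shRNA #2, by a log2 ratio of -0.88 (SE 0.05, edgeR adjusted p = 6.82e-08). The median log2 ratio of the 9 chemokines was -1.14, against -0.0052 over all genes.

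**Figure D2:**
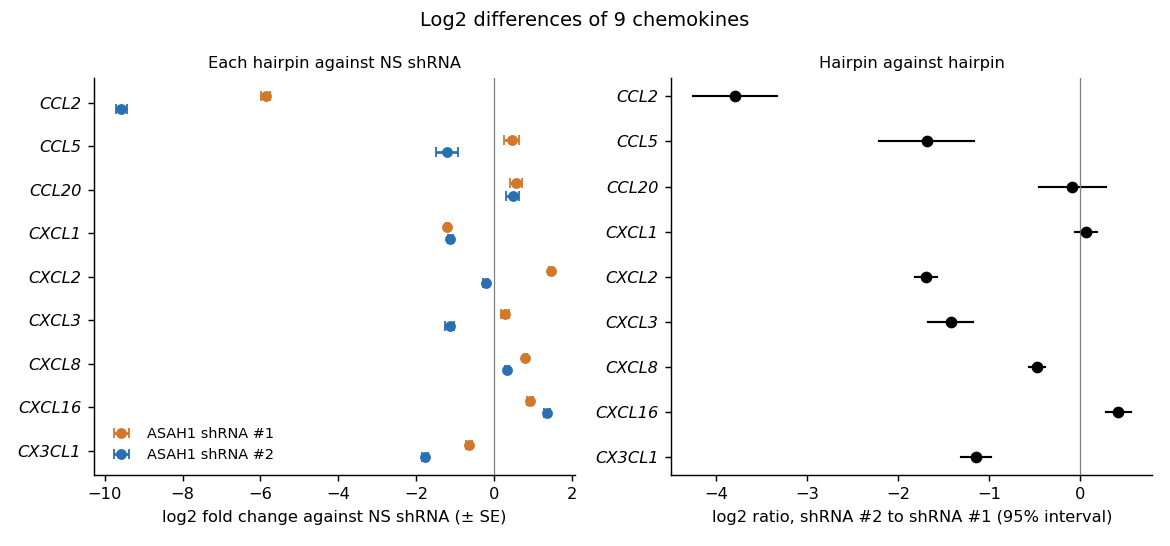
Log2 fold change of 9 chemokines for each hairpin against NS shRNA with its standard error (left) and log2 ratio of shRNA #2 to shRNA #1 with its 95% interval (right). CCL2 lies at -5.87 and -9.58 on the left, and only the intervals of CCL20 and CXCL1 cross 0 on the right.

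CCL2, the monocyte attractant, was the chemokine with the largest difference. Its normalized counts were 6352, 6249 and 6495 with NS shRNA and 123, 85.1 and 120 with shRNA #1, 58.2 times less on average, or -5.87 as log2 fold change (SE 0.12). In the other table they were 6854, 6784 and 7003 with NS shRNA and 6.47, 7.77 and 10.1 with shRNA #2, 848 times less on average, or -9.58 as log2 fold change (SE 0.14). The highest knockdown library thus stood far below the lowest control library in each table. Ordered from the lowest log2 fold change, CCL2 was 2nd of 14341 genes with shRNA #1 and 1st of 14250 with shRNA #2. Because 1 was added to the counts, a gene low with NS shRNA could not fall as far on this scale. CCL2 was also chosen on these values, so nothing is read from its rank. In reads, the NS shRNA libraries held 6069, 6368 and 7035, those of shRNA #1 held 92, 106 and 125, and those of shRNA #2 held 6, 8 and 13. The value for shRNA #2 therefore rests on few reads, and a pseudocount of 5 in place of 1 changed the log2 fold change to -9.05.

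The hairpins also differed from each other for CCL2. The libraries of shRNA #1 had 3.69, 2.58 and 3.62 CPM and those of shRNA #2 0.180, 0.217 and 0.282, with no overlap. Set against shRNA #1, CCL2 with shRNA #2 was lower by a log2 ratio of -3.79 (SE 0.21), and its 95% interval ran from -4.26 to -3.33. It was the 84th lowest of the 14714 ratios.

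CCL5, which attracts T cells and monocytes, was a gene of few reads, 10 to 56 per library. It had 1.101, 1.04 and 0.746 CPM with NS shRNA, 1.283, 1.36 and 1.305 with shRNA #1 and 0.300, 0.461 and 0.455 with shRNA #2. The libraries of the 3 groups did not overlap, with shRNA #1 highest and shRNA #2 lowest. Against NS shRNA the log2 fold change was 0.46 (SE 0.20) with shRNA #1, which was not past the threshold, and -1.20 (SE 0.29) with shRNA #2. Between the hairpins the log2 ratio was -1.68 (SE 0.24, 95% interval from -2.21 to -1.16).

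CCL20, the ligand of CCR6 on dendritic cells and T cells, stood higher with each hairpin. CCL2 was lower with each, and CCL5 stood above the control libraries with shRNA #1 only. CCL20 had 1.95, 1.54 and 1.66 CPM with NS shRNA, 2.53, 2.85 and 2.29 with shRNA #1 and 2.07, 2.87 and 2.34 with shRNA #2. Every knockdown library was above every control library. As log2 fold change this was 0.56 (SE 0.16) with shRNA #1 and 0.48 (SE 0.18) with shRNA #2. Between the hairpins the log2 ratio was -0.08, with a 95% interval from -0.45 to 0.29.

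**Figure D3:**
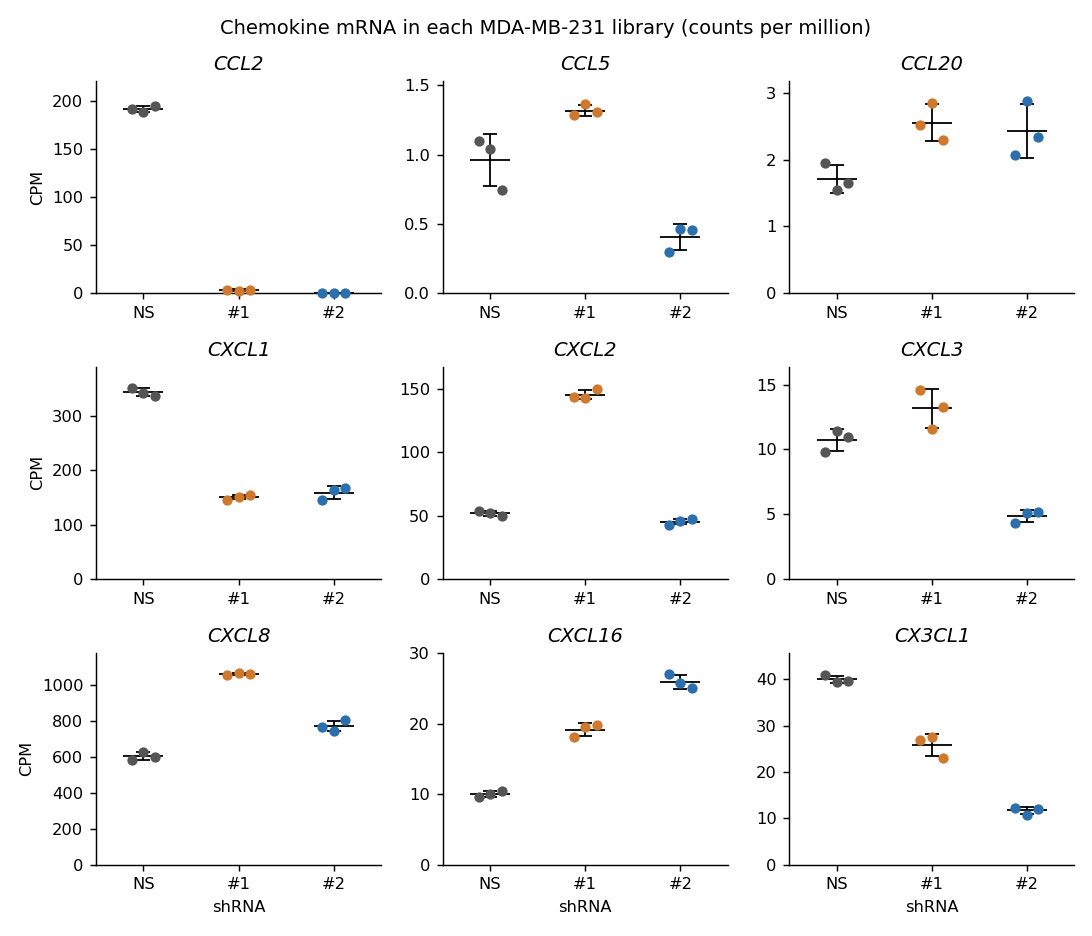
CPM of 9 chemokines in each of the 9 libraries (points), with the mean and SD of each group (bars) and a separate linear axis from 0 for each gene. CXCL2 is high in shRNA #1 alone (143 to 150 CPM), while CXCL16 is lowest with NS shRNA (9.56 to 10.4) and highest with shRNA #2 (25.1 to 27.0).

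The neutrophil attractants of the chromosome 4 cluster did not share a pattern. CXCL1 had 351, 342 and 337 CPM with NS shRNA, 146, 151 and 154 with shRNA #1 and 145, 164 and 167 with shRNA #2. It was lower with each hairpin, and the hairpins overlapped. The log2 fold change was -1.20 (SE 0.04) with shRNA #1 and -1.12 (SE 0.06) with shRNA #2. The log2 ratio of the hairpins was 0.07 with a 95% interval from -0.046 to 0.19. Without replicate 1 of shRNA #2 the ratio was 0.14 and past the threshold, so that 2 chemokines in place of 1 were higher with shRNA #2.

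CXCL2 went the other way from CXCL1 with shRNA #1. It had 53.9, 52.01 and 50.01 CPM with NS shRNA, 144, 143 and 150 with shRNA #1 and 43.0, 45.5 and 47.5 with shRNA #2. The libraries of shRNA #1 stood well above the others, and those of shRNA #2 lay just below the control. In log2 fold change it stood at 1.48 (SE 0.05) with shRNA #1 and -0.20 (SE 0.06) with shRNA #2. Between the hairpins the log2 ratio was -1.69 (SE 0.05, 95% interval from -1.81 to -1.57).

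CXCL3 is the neighbour of CXCL2 on the same strand. It had 9.78, 11.4 and 10.9 CPM with NS shRNA, 14.6, 11.6 and 13.3 with shRNA #1 and 4.35, 5.12 and 5.20 with shRNA #2. With shRNA #1 the lowest library was only just above the highest control library, and with shRNA #2 all 3 were less than the lowest control library. This gave a log2 fold change of 0.29 (SE 0.10) with shRNA #1 and -1.13 (SE 0.11) with shRNA #2, and the hairpins differed by a log2 ratio of -1.42 (SE 0.11, 95% interval from -1.67 to -1.18).

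CXCL8, also called interleukin 8, had 583, 628 and 600 CPM with NS shRNA, 1053, 1066 and 1062 with shRNA #1 and 763, 744 and 804 with shRNA #2. The 3 groups did not overlap, with shRNA #1 highest and the control lowest. Its log2 fold change was 0.81 (SE 0.04) with shRNA #1 and 0.35 (SE 0.05) with shRNA #2. The log2 ratio of the hairpins was -0.47 (SE 0.04, 95% interval from -0.56 to -0.38).

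Ratios of reads within a library need no scaling between libraries and showed the same divergence. For every 100 reads of CXCL1 there were 14.8 to 15.4 reads of CXCL2 with NS shRNA, 94.9 to 98.7 with shRNA #1 and 27.8 to 29.6 with shRNA #2. For CXCL8 there were 166 to 184 reads per 100 of CXCL1 with NS shRNA, 691 to 722 with shRNA #1 and 454 to 525 with shRNA #2. For CXCL3 the figures were 2.79 to 3.35 with NS shRNA, 7.70 to 10.0 with shRNA #1 and 2.99 to 3.13 with shRNA #2, so that NS shRNA and shRNA #2 overlapped. CXCL1, CXCL2 and CXCL3 are close copies, and reads of 76 bases that fit several places are dropped by default counting. Of the 76-base windows of their transcripts, 0.182% of CXCL1, 2.31% of CXCL2 and 2.20% of CXCL3 occurred unchanged in another of the 3, so almost all windows told them apart.

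The membrane-bound chemokines moved apart from each other. CXCL16, the ligand of CXCR6, had 9.56, 10.1 and 10.4 CPM with NS shRNA, 18.2, 19.6 and 19.8 with shRNA #1 and 27.0, 25.8 and 25.1 with shRNA #2. The groups did not overlap, and it stood higher with shRNA #2, at a log2 ratio to shRNA #1 of 0.43 (SE 0.06, 95% interval from 0.29 to 0.56). The log2 fold change against NS shRNA was 0.93 (SE 0.07) with shRNA #1 and 1.37 (SE 0.08) with shRNA #2.

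CX3CL1, or fractalkine, which holds CX3CR1-bearing leukocytes at the membrane, had 40.9, 39.4 and 39.8 CPM with NS shRNA. It had 26.9, 27.5 and 23.1 with shRNA #1 and 12.3, 10.8 and 12.1 with shRNA #2, so that the groups lay in steps without overlap. Its log2 fold change was -0.64 (SE 0.07) with shRNA #1 and -1.77 (SE 0.08) with shRNA #2, and the log2 ratio of the hairpins was -1.14 (SE 0.08, 95% interval from -1.31 to -0.97). CXCL12, which stromal cells make in many tissues, had 0 reads in 8 libraries and 1 read in replicate 3 of shRNA #1, and was not tested.

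The make-up of the chemokine mRNA changed with these differences. Reads on the 10 genes together came to 1273 to 1306 of every 1000000 reads on genes, without TMM scaling, with NS shRNA, 1470 to 1480 with shRNA #1 and 932 to 989 with shRNA #2. CCL2 took 15.3% ± 0.416 (SD, n = 3) of them with NS shRNA, 0.232% ± 0.0443 with shRNA #1 and 0.0221% ± 0.00422 with shRNA #2. CXCL8 took 48.1% ± 1.18 with NS shRNA, 74.6% ± 0.244 with shRNA #1 and 75.5% ± 0.981 with shRNA #2. CXCL2 took 4.15% ± 0.169, 10.2% ± 0.224 and 4.44% ± 0.121 in the same order, and CXCL1 27.4% ± 0.764, 10.6% ± 0.206 and 15.6% ± 0.918. Such shares follow transcript length as well as abundance, and are compared here between groups for the same gene.

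**Figure D4:**
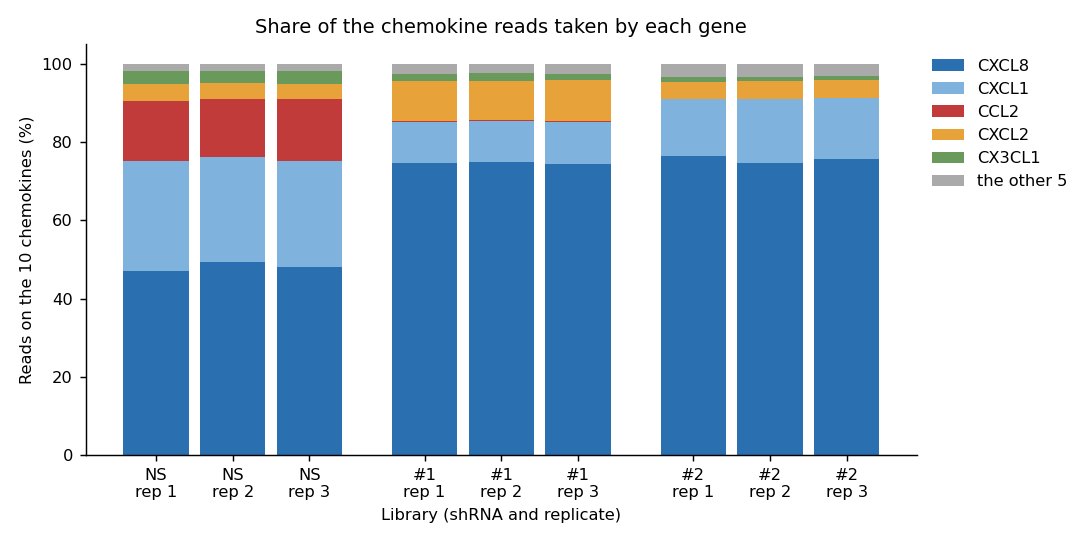
Share of the reads on the 10 chemokine genes taken by each gene, in percent, for each of the 9 libraries. CCL2 takes 14.8 to 15.6% with NS shRNA and is barely visible with either hairpin, and CXCL8 takes 46.9 to 49.3% with NS shRNA and 74.3 to 76.5% in the knockdown libraries.

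Of 38 other chemokine ligands, 22 had no read in the NS shRNA or shRNA #2 libraries, 23 had none in the NS shRNA or shRNA #1 libraries, and 4 could be tested against NS shRNA. With shRNA #1, 1 rose and 1 fell (median log2 fold change of the 4 -0.32), and with shRNA #2 all 4 fell (median -1.18), against medians over all genes of 0.0013 and 0.013. Over all genes tested, 32.8% rose and 33.3% fell with shRNA #1, and 33.5% rose and 33.4% fell with shRNA #2. With only 4 genes, little can be read from these counts. CCL28, a mucosal chemokine, fell with shRNA #1 (log2 fold change -1.09, SE 0.08, limma adjusted p = 2.64e-06) and with shRNA #2 (-1.16, SE 0.10, limma adjusted p = 3.21e-06). CXCL11, an interferon-inducible ligand of CXCR3, rose with shRNA #1 (0.79, SE 0.14, limma adjusted p = 0.000685) and fell with shRNA #2 (-1.21, SE 0.21, limma adjusted p = 0.000424). CXCL10, another ligand of CXCR3, fell with shRNA #2 (-2.06, SE 0.26, limma adjusted p = 4.43e-05), and its value with shRNA #1 was -0.45 (limma adjusted p = 0.113). CCL26 fell with shRNA #2 (-0.81, SE 0.20, limma adjusted p = 0.00424). XCL1 was too low to be tested against NS shRNA, with 1 to 2 reads with NS shRNA, 8 to 12 with shRNA #1 and 1 to 2 with shRNA #2. CXCL5, a neutrophil attractant named after its values were seen, had 8 to 11 reads with NS shRNA, 6 to 10 with shRNA #1 and 0 in every library of shRNA #2, where up to 3 reads per library remain possible.

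Most receptors of the 10 chemokines were nearly absent from the cells themselves. CCR2, the receptor of CCL2, had 0 to 7 reads per library, CCR6 0 to 4, and CXCR1, CXCR2, CX3CR1 and CXCR6 at most 1. Of 23 receptor genes, 5 could be tested. With shRNA #1, 4 fell and none rose, where CCR10 at -0.43 did not pass (limma adjusted p = 0.285). With shRNA #2, 4 fell and 1 rose, and the medians of the 5 were -1.54 with shRNA #1 and -1.16 with shRNA #2. Over all genes tested the medians were 0.0013 with shRNA #1 and 0.013 with shRNA #2, 32.8% and 33.5% rose, and 33.3% and 33.4% fell. CXCR4, the receptor of CXCL12, fell with shRNA #1 from 475 ± 2.33 (SD, n = 3) normalized counts to 165 ± 30.1, which is -1.54 in log2 fold change (SE 0.12, limma adjusted p = 4.05e-06). It fell with shRNA #2 from 514 ± 3.64 to 184 ± 12.02, or -1.48 (SE 0.09, limma adjusted p = 3.17e-07). ACKR3, a scavenger of CXCL12, fell with shRNA #1 (-1.94, SE 0.12, limma adjusted p = 7.98e-07) and rose with shRNA #2 (0.34, SE 0.08, limma adjusted p = 0.00455). CCR1, which binds CCL5, fell with shRNA #1 (-2.16, SE 0.29, limma adjusted p = 0.000141) and shRNA #2 (-2.44, SE 0.32, limma adjusted p = 6.48e-05), on 29 to 33 reads with NS shRNA and 4 to 9 in the knockdown libraries. CCRL2, which binds chemoattractants without known signalling, fell with shRNA #1 (-0.25, SE 0.05, limma adjusted p = 0.00254) and shRNA #2 (-1.16, SE 0.06, limma adjusted p = 9.48e-08). CCR10 fell with shRNA #2 (-0.999, SE 0.35, limma adjusted p = 0.0265), which was lost without NS shRNA replicate 1 (-0.85, limma adjusted p = 0.0966) and without shRNA #2 replicate 1 (-0.66, limma adjusted p = 0.0882).

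Of 27 inducers, regulators and proteases of chemokines, all were tested. With shRNA #1, 19 rose and 7 fell, and with shRNA #2, 13 rose and 9 fell, with medians of 0.64 and 0.19. Over all genes tested, 32.8% rose and 33.3% fell with shRNA #1 and 33.5% rose and 33.4% fell with shRNA #2, with medians of 0.0013 and 0.013. The inducer IL1A, which encodes interleukin 1 alpha, rose from 3932 ± 181 to 28468 ± 1350 normalized counts (SD, n = 3) with shRNA #1, or 2.86 in log2 fold change (SE 0.05, limma adjusted p = 1.66e-09). With shRNA #2 it rose from 4250 ± 191 to 11459 ± 493, by 1.43 (SE 0.06, limma adjusted p = 2.21e-08). IL1B, which encodes interleukin 1 beta, rose with shRNA #1 (1.09, SE 0.04, limma adjusted p = 4.43e-08) and fell with shRNA #2 (-0.62, SE 0.05, limma adjusted p = 2.72e-06). TNF, named after its values were seen, rose from 23.02 to 25.9 normalized counts to 310.2 to 328 with shRNA #1 (3.64, SE 0.12, limma adjusted p = 2.44e-08) and from 24.8 to 27.9 to 119 to 141 with shRNA #2 (2.25, SE 0.16, limma adjusted p = 1.03e-06). The receptor genes IL1R1 and TNFRSF1A, named after their values were seen, fell with shRNA #1 (-0.26, limma adjusted p = 0.023, and -0.79, limma adjusted p = 5.99e-07). They also fell with shRNA #2 (-0.39, limma adjusted p = 0.00854, and -0.14, limma adjusted p = 0.0405).

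Among the genes of the NF-kB system in this list, NFKB2, a subunit precursor, rose with shRNA #1 (0.92, SE 0.05, limma adjusted p = 6.78e-07) and fell with shRNA #2 (-0.45, SE 0.06, limma adjusted p = 0.000115). NFKBIA, the inhibitor, fell with shRNA #1 (-0.21, SE 0.06, limma adjusted p = 0.00945) and rose with shRNA #2 (0.33, SE 0.06, limma adjusted p = 0.000687). The call with shRNA #1 was lost with the replicate number as a block (limma adjusted p = 0.0511). TNFAIP3, a feedback inhibitor named after its values were seen, rose with shRNA #1 (2.12, SE 0.05, limma adjusted p = 5.25e-09), and its value with shRNA #2 was -0.10 (limma adjusted p = 0.168). NFKB1 and REL, subunits named after their values were seen, rose with shRNA #1 (0.24, limma adjusted p = 0.00144, and 1.14, limma adjusted p = 0.000871) and with shRNA #2 (0.31, limma adjusted p = 0.000526, and 0.70, limma adjusted p = 0.00701). RELA and RELB, subunits also named after their values were seen, rose with shRNA #1 (0.32, limma adjusted p = 0.000427, and 1.16, limma adjusted p = 2.01e-07). With shRNA #2 they did not pass (0.086, limma adjusted p = 0.232, and 0.077, limma adjusted p = 0.394). NFKBIZ, also named after its values were seen, did not pass with shRNA #1 (0.089, limma adjusted p = 0.258) and fell with shRNA #2 (-0.82, limma adjusted p = 6.62e-06). Between the hairpins the log2 ratio was -1.38 for NFKB2 (edgeR adjusted p = 9.36e-09), 0.52 for NFKBIA (edgeR adjusted p = 1.14e-05) and -2.23 for TNFAIP3 (edgeR adjusted p = 6.10e-11).

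The AP-1 subunit JUN rose with shRNA #1 (1.30, SE 0.04, limma adjusted p = 1.95e-08) and with shRNA #2 (0.88, SE 0.05, limma adjusted p = 2.13e-07), and so did its partner FOSL1 (0.58, limma adjusted p = 4.86e-06, and 0.26, limma adjusted p = 0.00174). CEBPB, a factor of inflammatory genes, rose by 0.82 with shRNA #1 (limma adjusted p = 1.59e-05) and by 0.32 with shRNA #2 (limma adjusted p = 0.0133), the latter being lost without shRNA #2 replicate 1 (0.27, limma adjusted p = 0.0657). CEBPD, named after its values were seen, fell with shRNA #1 (-1.16, limma adjusted p = 1.82e-06) and with shRNA #2 (-0.995, limma adjusted p = 3.28e-06). ZFP36L1, a decay factor of mRNAs with AU-rich elements, rose by 1.33 with shRNA #1 (limma adjusted p = 3.70e-07) and by 0.32 with shRNA #2 (limma adjusted p = 0.00305). KHSRP, another decay factor, rose by 0.64 with shRNA #1 (limma adjusted p = 0.000542). Its rise with shRNA #2, 0.30 (limma adjusted p = 0.0368), was lost without NS shRNA replicate 1 (0.27, limma adjusted p = 0.114) or 2 (0.22, limma adjusted p = 0.147) and without shRNA #2 replicate 1 (0.32, limma adjusted p = 0.0737) or 2 (0.18, limma adjusted p = 0.128).

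ADAM10, which sheds CXCL16 and CX3CL1, fell from 15129 ± 1250 to 6163 ± 201 normalized counts (SD, n = 3) with shRNA #1 (-1.29, SE 0.06, limma adjusted p = 1.96e-07). With shRNA #2 it fell from 16353 ± 1340 to 14051 ± 561 (-0.22, SE 0.07, limma adjusted p = 0.0132), and the hairpins differed by a log2 ratio of 1.07 (SE 0.06, edgeR adjusted p = 4.66e-08). ADAM17, named after its values were seen, rose by 0.29 with shRNA #1 (limma adjusted p = 0.0139) and by 0.28 with shRNA #2 (limma adjusted p = 0.0145). The first call was lost without shRNA #1 replicate 2 (0.26, limma adjusted p = 0.0592), and the second without NS shRNA replicate 1 (0.19, limma adjusted p = 0.0528) and without shRNA #2 replicate 1 (0.25, limma adjusted p = 0.0619).

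**Figure D5:**
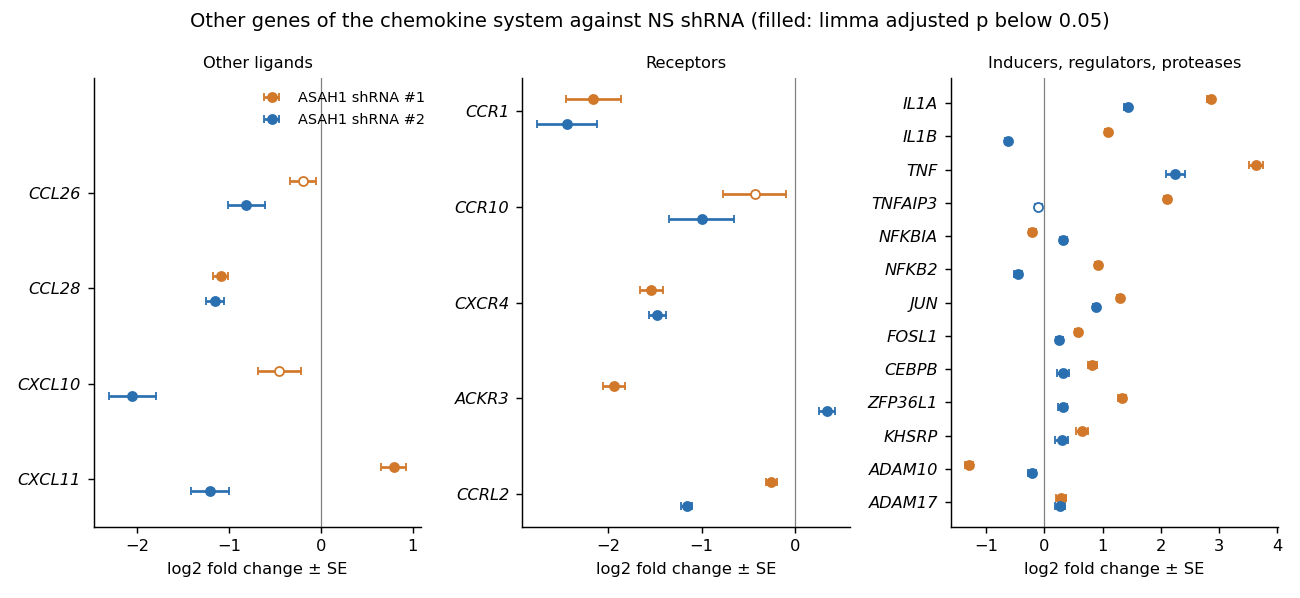
Log2 fold change ± SE of the other genes of the chemokine system against NS shRNA with each hairpin, where a filled point has a limma adjusted p below 0.05. The filled points of CXCL11, ACKR3, IL1B, NFKB2 and NFKBIA lie on opposite sides of 0 with the 2 hairpins.

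Over the 9 libraries, the genes whose pattern was most like that of CCL2 were CDH1, LDOC1, ARHGDIB, MPZL2 and EMB. Likeness was the root mean square distance of log2(CPM + 1) values, centred on NS shRNA, among 11631 genes with a mean of at least 100 reads. Their distances from CCL2 ran from 2.80 for CDH1 to 3.10 for EMB. Adding 1 to the CPM limits how far a gene can fall on this scale, by its level with NS shRNA. All 5 genes stood far lower than CCL2 with NS shRNA, so none could reach the value of CCL2 with shRNA #2. The distances therefore cannot decide whether the fall of CCL2 stood apart from theirs. On that scale CCL2 was at -5.49 with shRNA #1 and -7.29 with shRNA #2, CDH1, which encodes E-cadherin, at -2.68 and -3.36, and ARHGDIB at -1.48 and -4.23. With a mean of at least 500 reads, or by Pearson correlation, 1 of the 5 genes was the same, so that the list depends on the measure.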

How the data were processed

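RNA-seq was done on MDA-MB-231 cells with NS shRNA, ASAH1 shRNA #1 or ASAH1 shRNA #2, with 3 libraries each, grouped by the treatment and replicate named in the labels. Nothing beyond the words biological replicate says how the libraries of a group were separated, so the p-values measure the spread between these libraries. Single-end reads of 76 bases were trimmed (Trimmomatic 0.36) and placed on hg38 (STAR 2.7.1a) by the authors, who counted them per gene on the reverse strand with HTSeq and normalized each hairpin with its controls separately in DESeq2 1.28. Another passage of the methods names other tools, and the sources describe both poly(A) selection and ribosomal depletion, which could change which RNAs were counted. The deposited values per library are a signal, read counts divided by 1 size factor per library, in 1 table per hairpin. The deposited tables also hold the authors' own log2 fold changes, p-values and a test score, which were not used. In the table of shRNA #1, the symbols of 28 genes had become dates, and 0 columns of values were left without a sample.

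Differences from NS shRNA were fitted within each table with limma 3.58.1 (R 4.3.3, intensity trend) on log2(value + 1), a scale that understates changes of low genes, for genes with a mean of at least 10. All values above 0 came out as whole reads (100%, within 0.05 of a whole number) after multiplying by the size factor, and the NS shRNA reads were the same in both tables. The hairpins were therefore compared on reads of all 9 libraries with edgeR 4.0.16 (TMM, quasi-likelihood test). P-values were adjusted over all genes by the Benjamini-Hochberg method. Both fits were tested on simulated data. Alternatives were another pseudocount, filter, scaling or test (DESeq2 1.42.0 among them), the replicate number as a block, and each library left out.

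The 10 chemokines and all gene lists were chosen with earlier results of these data known. Of each list the text names genes with an adjusted p below 0.05 in at least 1 comparison, at most 10 by mean level, and otherwise says that a gene was named after its values were seen. Exceptions are CCL7 and the nearly absent receptors of the 10 chemokines, which are named with their reads only. Positions and transcript lengths came from GENCODE v44 on hg38, and promoter sequences from RefSeq. At these depths a gene at 0 reads may still have up to 3 reads per library, for counting error alone.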

Additional observations from a re-analysis of the deposited data

Results flagged for a closer look

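Between the hairpins, 7 of the 9 chemokines were past the threshold of edgeR's test of shRNA #2 against shRNA #1, where 31.1% of all genes tested were higher and 32.1% lower with shRNA #2. The chemokines were chosen on the same libraries, so their ratios are a description and nothing is read from this count. As log2 ratios of shRNA #2 to shRNA #1 these were -3.79 for CCL2, -1.68 for CCL5, -1.69 for CXCL2, -1.42 for CXCL3, -0.47 for CXCL8, 0.43 for CXCL16 and -1.14 for CX3CL1. ASAH1 differed by -0.88.

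Among the other ligands and the receptors, the same test separated the hairpins for CCL26 (-0.61), CXCL10 (-1.65), CXCL11 (-2.05), XCL1 (-2.80, on 1 to 12 reads, and kept by the filter through shRNA #1, where it is high), CCRL2 (-0.92) and ACKR3 (2.27). The value of CCL26 no longer passed without shRNA #1 replicate 3 (-0.53), shRNA #2 replicate 1 (-0.57) or shRNA #2 replicate 3 (-0.43).

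Of the 27 inducers, regulators and proteases, 17 were lower and 4 higher with shRNA #2 in this test. Over all genes tested, 32.1% were lower and 31.1% higher. Those that passed included IL1A (-1.43), IL1B (-1.71), TNF (-1.41), TNFAIP3 (-2.23), NFKB2 (-1.38), NFKBIA (0.52), JUN (-0.42), FOSL1 (-0.33), CEBPB (-0.51), ZFP36L1 (-1.02), KHSRP (-0.35) and ADAM10 (1.07). The value of KHSRP no longer passed without shRNA #1 replicate 1 (-0.26) or 2 (-0.34), or without shRNA #2 replicate 1 (-0.32) or 3 (-0.25).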

How the results depend on the processing

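Of 27 counts and CCL2 values, 22 kept their direction and stayed within a set margin of their size under every alternative. Within that margin, the inducers, regulators and proteases higher with shRNA #2 numbered 9 to 13 over the libraries left out. All genes lower with shRNA #2 than with shRNA #1 numbered 4119 to 5607 over the other alternatives. A pseudocount of 5 gave a log2 fold change of -9.05 for CCL2 with shRNA #2. Without a filter, and with DESeq2, 2 other ligands were higher with shRNA #1 in place of 1. With a mean of at least 50, 2 other ligands and 2 receptors were lower with shRNA #2 in place of 4 each, as fewer genes were tested. Leaving out single libraries gave 1 to 2 chemokines higher with shRNA #2 than with shRNA #1. Against NS shRNA, the calls with shRNA #2 were lost for CEBPB without the intensity trend (limma adjusted p = 0.0568) and for CCR10 with DESeq2 (DESeq2 adjusted p = 0.0691). That of KHSRP was lost without the intensity trend (limma adjusted p = 0.112) and with upper quartile rescaling (limma adjusted p = 0.0707). Log2 ratios of the hairpins that did not pass the test changed sign for CXCL1 (-0.0082) and CXCR4 (-0.022) with upper quartile scaling, and over the libraries left out ran from -0.22 to 0.016 for CCL20, -0.026 to 0.20 for CXCR4 and -0.074 to 0.029 for ADAM17. The cause was not tested.

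Same-numbered deviations correlated at -0.268 to -0.131 for shRNA #1 with NS shRNA and -0.316 to -0.0982 for shRNA #2 with NS shRNA. Between the hairpins they correlated at 0.0307 to 0.469, and those of different number at -0.4 to 0.236. With 3 libraries per group, these values cannot decide whether equal replicate numbers mark paired libraries. With the replicate block, 4 chemokines were higher and 3 lower with shRNA #1, 2 higher and 5 lower with shRNA #2, and 1 higher and 6 lower between the hairpins. The calls of NFKBIA with shRNA #1 (limma adjusted p = 0.0511) and KHSRP with shRNA #2 (limma adjusted p = 0.0629) were lost under the block. Few reads limit CCL2 with shRNA #2, CCL5, CCL20 and CXCL12.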
